A study of Xenopus laevis with 74 samples.

Results

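The step between stage 12 and stage 13 was examined in animal caps of Xenopus laevis labelled ventral mesoderm. The animal cap is the roof of the blastula, a sheet of pluripotent cells that forms epidermis when it is cultured alone and other tissues when it is given signals. Caps were cut at the blastula stage and collected as pools when their stage was reached, and mRNA of the pooled explants was sequenced. The comparison took every library whose lineage label was Ventral Mesoderm and whose stage was 13 (3 libraries) or 12 (3 libraries), 6 of the 74 libraries of the series, which also held untreated caps (Epidermal), caps in activin (Endoderm) and caps in noggin (Neural) at 6 stages. Both stages carried the same treatment, BMP4/7 at 20 as the labels give it. The labels print this dose in ng/uL and the methods of the study print another unit, so the unit remained unresolved. There was no untreated arm inside the comparison, so changes that depend on BMP4/7 and changes that come with time alone cannot be told apart in it. Each stage was collected at its own time of culture, so time in culture and developmental stage cannot be told apart either. An explant is not a ventral marginal zone: it has no organizer, no neighbouring yolk cells and no inner and outer tissue contacts of the embryo. The labels did not give the number of caps in a pool, for which the methods of the study state only a range.

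BMP4 and BMP7 are ligands that act through type I and type II serine/threonine kinase receptors and Smad1, Smad5 and Smad8/9. In the frog gastrula high BMP activity specifies ventral mesoderm, whose later derivatives include blood, vessels and the lateral plate, and it maintains epidermis in the ectoderm. Stage 12 is late gastrula and stage 13 is the start of the neurula. Over this interval the posterior body is laid out under Wnt, FGF and retinoic acid signals: caudal (Cdx) homeodomain proteins act upstream of Hox genes, the ordered clusters of homeobox genes that set position along the head to tail axis, and the ring of mesoderm around the blastopore resolves into tailbud, presomitic and lateral mesoderm. Xenopus laevis is allotetraploid, and most genes are present as an L and an S copy (homeologs), which were tested as separate genes.

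Levels are CPM, read counts scaled to a common library total by the trimmed mean of M values, always listed for replicates 1, 2 and 3 in that order. Differences between stages are log2 fold changes of stage 13 over stage 12. A gene was called when its adjusted p, Benjamini-Hochberg over 27424 genes, was at most 0.05 in edgeR's quasi-likelihood test. That test was run without a replicate block and, because same-numbered libraries deviated together, with the replicate number as a block (the paired fit). A gene is said below to have risen or fallen without further words where the fit without the block called it, and "in the paired fit" where only the paired fit did. Genes named on the paired fit alone were chosen after their values had been seen. In simulated data the paired fit made a larger share of false calls than its threshold, so calls that rest on it alone are less certain.

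The libraries held between 15058862 and 22504961 counts. Replicate number accounted for 49.9% of the variance of log2 CPM over 18038 expressed genes, stage for 40.0% and the rest for 10.1%. Replicate number has more levels than stage and the shares were not adjusted for this, so they do not rank the 2 sources. Replicate 1 stood apart at both stages: its summed level of 62 core mesoderm factors was 2295 CPM at stage 13 and 1285 CPM at stage 12, against 7717 and 7849 CPM at stage 13 and 4086 and 4785 CPM at stage 12 in replicates 2 and 3. Its sums of 98 epidermal genes were 39889 CPM at stage 13, where replicates 2 and 3 had 32538 and 25602 CPM, and 22672 CPM at stage 12, where they had 25066 and 21255 CPM. Without replicate 1 edgeR called 412 genes higher and 208 lower without the block, and 3599 and 3305 with it. The part of this difference between replicates in the results was otherwise not tested. In pools of whole explants, fewer cells of a type and less RNA per cell cannot be told apart.

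**Figure D1:**
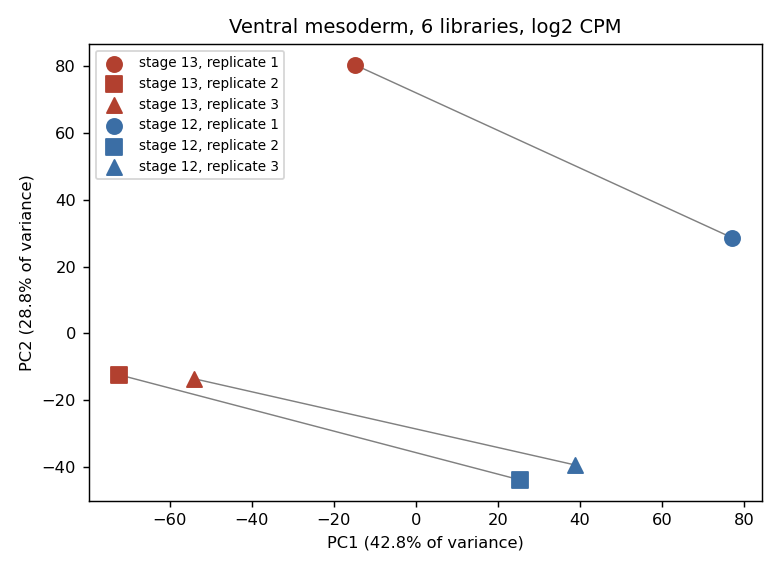
Principal components of log2 CPM in the 6 libraries, the first (42.8% of variance) on the horizontal and the second (28.8%) on the vertical axis, with one point per library and a grey line joining libraries of the same replicate number. The stage 13 libraries lie left of the stage 12 library of the same number in each of the 3 pairs, and replicate 1 of both stages lies apart from replicates 2 and 3 on the second component.

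Without the block edgeR called 1040 genes, 459 higher at stage 13 (1.67% of those tested) and 581 lower (2.12%). The median log2 fold change was 1.39 among the genes that rose and -1.29 among those that fell, and 346 and 461 of them changed at least 2-fold. In all 1040 the 3 stage 13 values and the 3 stage 12 values did not overlap, a separation that 13.4% of all tested genes showed upward and 14.1% downward. Where it is described below for a gene called without the block, the separation is therefore no further support for the call. The count of 1040 rested on few libraries. It was 0 without stage 13 replicate 2 and 0 without stage 12 replicate 3, where edgeR found 4805 and 4615 genes at an unadjusted p under 0.05. It was 1 without stage 12 replicate 1, 32 without stage 12 replicate 2, 236 without stage 13 replicate 3 and 949 without stage 13 replicate 1. Scaling by library totals instead of trimmed means moved the split to 379 higher and 905 lower, 29.5% higher against 44.1%, with the median of all genes at -0.09. The paired fit called 7113 genes, 3550 higher (12.9%) and 3563 lower (13.0%), and held 1036 of the 1040. It gave between 5067 and 6904 calls when the pair of libraries of 1 number was left out. Genes called by edgeR, DESeq2 and limma voom alike, each with the block, numbered 2696 upward (9.83%) and 2770 downward (10.1%). Each share of a gene list below is to be read against these shares over all genes.

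**Figure D2:**
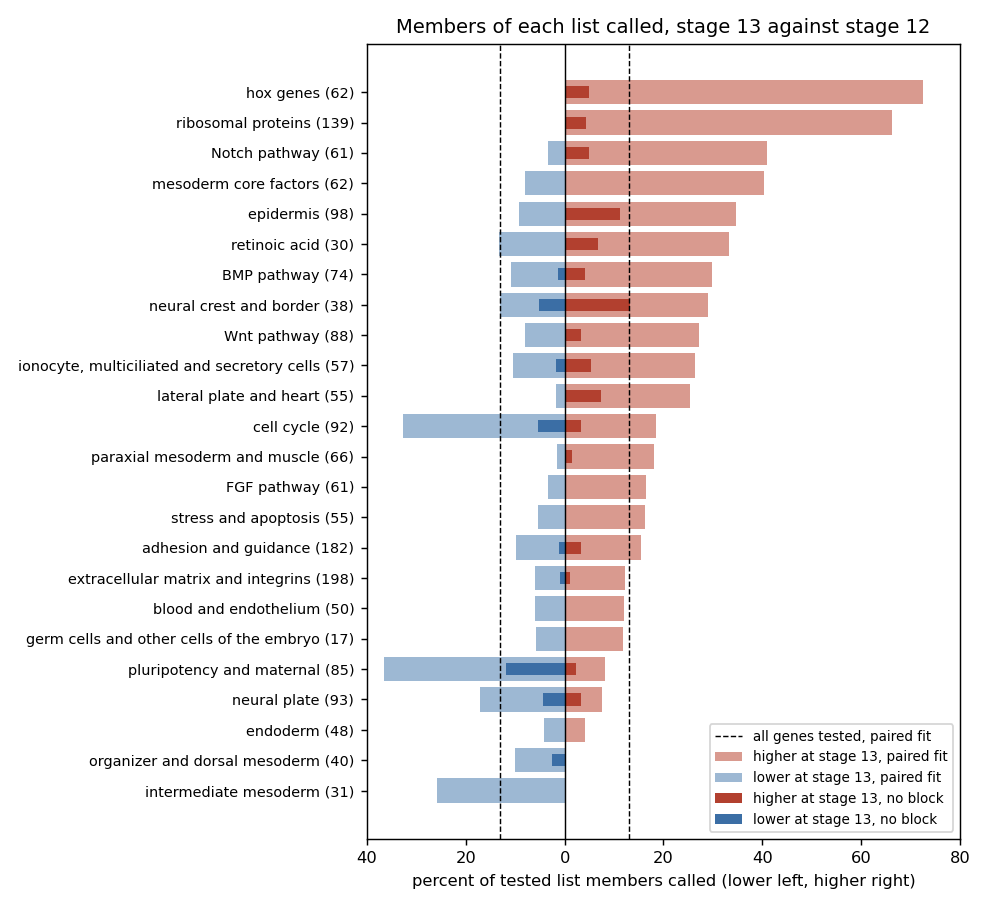
Share of the tested members of each gene list called higher at stage 13 (bars to the right) and lower at stage 13 (bars to the left), in percent, in the paired fit (pale) and without the block (dark); dashed lines mark the paired fit's share among all genes, 12.9% upward and 13.0% downward. The Hox and ribosomal protein lists reach 72.6% and 66.2% upward, and the pluripotency and maternal list reaches 36.5% downward.

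The caudal genes and several genes of the presomitic mesoderm were higher at stage 13 within each replicate pair, while the gastrula ligand gene wnt8a was lower. Of the 62 core mesoderm factors 25 rose and 5 fell in the paired fit (40.3% and 8.06%), and 21 and 5 were called in all 3 paired tests. Without the block edgeR called 0, with 8 at an unadjusted p under 0.05, and DESeq2 called 5 higher and 2 lower. The list's median log2 fold change was 0.51, against 0.00 over all genes. Its summed level was 2295, 7717 and 7849 CPM at stage 13, against 1285, 4086 and 4785 CPM at stage 12.

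cdx1.S, a caudal homeobox gene, had 315, 1267 and 1083 CPM at stage 13, against 103, 430.3 and 337 CPM at stage 12. The ranges of the stages overlapped, with replicate 1 low at both, and the fold change within a replicate was 3.07, 2.94 and 3.21 (log2 fold change 1.62 ± 0.09 in the paired fit, SE, edgeR adjusted p = 2.99e-08, and 0.273 without the block). cdx4.L, another member of the family, had 176, 542 and 556 CPM at stage 13, against 49.8, 210.4 and 179 CPM at stage 12 (paired edgeR adjusted p = 1.07e-07). cdx2.S had 91.0, 341 and 206 CPM at stage 13, against 16.4, 80.1 and 58.5 CPM at stage 12 (paired edgeR adjusted p = 6.89e-08). The same order, stage 13 above stage 12 in each pair and replicate 1 lowest, held for cdx1.L, cdx2.L and cdx4.S, all of which rose in the paired fit. post.L, a gene the study follows in this lineage, had 563, 1042 and 1278 CPM at stage 13, against 116, 289.6 and 333 CPM at stage 12. Its groups did not overlap, with folds of 4.84, 3.60 and 3.84 within the replicates, and it rose in the paired fit (log2 fold change 1.96 ± 0.48 (SE), edgeR adjusted p = 0.0824, and 9.07e-09 in the paired fit).

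Genes of the presomitic and tailbud mesoderm moved the same way. msgn1.S, which encodes the presomitic basic helix-loop-helix factor mesogenin, had 9.32, 86.8 and 120.4 CPM at stage 13, against 3.45, 25.8 and 29.3 CPM at stage 12, with folds of 2.70, 3.36 and 4.11 within the replicates (paired edgeR adjusted p = 1.18e-06). tbx6.S, a T-box gene of paraxial mesoderm, had 1.103, 21.2 and 16.7 CPM at stage 13, against 0.703, 5.98 and 4.68 CPM at stage 12 (paired edgeR adjusted p = 2.36e-04). Replicate 1 was the lowest library of its stage for tbx6.S, with folds of 1.57, 3.54 and 3.57 within the replicates. pcdh8.2.L, a protocadherin of paraxial mesoderm, had 17.4, 227 and 162 CPM at stage 13, against 4.09, 26.04 and 47.7 CPM at stage 12 (paired edgeR adjusted p = 0.00668). mespb.L, a factor of segment formation, had 8.38, 72.4 and 71.9 CPM at stage 13, against 2.36, 34.2 and 32.4 CPM at stage 12 (paired edgeR adjusted p = 4.35e-05). Both homeologs of msgn1, mespb and evx1 rose in the paired fit.

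Among the pan-mesodermal T-box genes, t.L (brachyury) had 227, 595 and 644 CPM at stage 13, against 121, 360.0 and 488 CPM at stage 12. Its ranges overlapped and the fold within a replicate was 1.87, 1.65 and 1.32 (paired log2 fold change 0.67 ± 0.11, SE, edgeR adjusted p = 2.70e-04, and 0.636 without the block). vegt.S had 271, 719 and 905 CPM at stage 13, against 189, 556 and 666 CPM at stage 12 (paired edgeR adjusted p = 0.00208). vegt.L was called in neither fit, with a paired log2 fold change of 0.26 ± 0.10 (SE). The T-box gene eomes.L, active early in mesendoderm, had 0.607, 0.630 and 1.92 CPM at stage 13, against 1.92, 3.72 and 6.78 CPM at stage 12 and fell in the paired fit (edgeR adjusted p = 5.97e-04).

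wnt8a.L, a Wnt ligand of the ventrolateral marginal zone, had 22.6, 45.0 and 60.7 CPM at stage 13, against 40.2, 81.4 and 149 CPM at stage 12. It was lower at stage 13 in each pair, with folds of 0.563, 0.553 and 0.407, and fell in the paired fit (log2 fold change -1.0 ± 0.13, SE, edgeR adjusted p = 6.44e-05). wnt8a.S fell there too (paired log2 fold change -1.09 ± 0.16, SE, edgeR adjusted p = 2.47e-04). The mesendodermal homeobox gene mixer.S had 0.386, 0.882 and 8.58 CPM at stage 13, against 1.73, 8.30 and 36.9 CPM at stage 12, highest in replicate 3 at both stages, and fell in the paired fit (edgeR adjusted p = 1.16e-05). Its relatives mix1.L, at 11.5, 20.8 and 60.0 CPM at stage 13, against 12.0, 29.1 and 70.2 CPM at stage 12, and bix1.3.L, at 11.5, 19.2 and 24.9 CPM at stage 13, against 6.77, 27.0 and 26.7 CPM at stage 12, were called in neither fit. Without replicate 1 the test without the block called 17 core mesoderm factors higher and 0 lower, and the paired test called 27 and 7.

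The Hox genes showed the largest shift of any list by its median. All 62 Hox genes that passed the low-count filter had a higher mean at stage 13, 45 rose in the paired fit (72.6%, against 12.9% of all genes) and none fell. 34 rose in all 3 paired tests, and 3 (hoxa5.S, hoxb8 and hoxb5.S) were called without the block. The list's median log2 fold change was 3.2, and 2.90 with 12 genes at the floor of 3 counts per library at stage 12 set to their bound and 3 at the floor in both stages left out. In 37 genes (59.7%) all stage 13 values lay above all stage 12 values, against 13.4% of all genes. The low-count filter asked for 15 counts in any of the 74 libraries, so a gene could pass it through the stage 13 libraries alone. The Hox counts and shares given here may in part be set by that filter. Summed over the list, stage 13 had 214, 769.8 and 542 CPM and stage 12 had 22.4, 178 and 86.4 CPM, so that replicate 1 at stage 13 lay a little above replicate 2 at stage 12. At least 1 CPM on average was reached by 41 Hox genes at stage 13 and by 9 at stage 12. Many stage 12 values were 0 or a few counts, and for those genes the fitted fold changes depend on the prior count, so levels are given as well. Without replicate 1 the paired test called 48 Hox genes higher and the test without the block 21.

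The shift was seen along the whole cluster order. Paralogue groups 1 to 4, the anterior genes, summed to 160, 341 and 272 CPM at stage 13, against 19.4, 144 and 72.5 CPM at stage 12, with 14 of 22 higher in the paired fit. Groups 5 to 8 summed to 34.1, 295 and 181 CPM at stage 13, against 0.511, 15.9 and 5.04 CPM at stage 12, with 16 of 17 higher in the paired fit. Groups 9 to 13, the posterior genes, summed to 19.9, 134 and 89.4 CPM at stage 13, against 2.49, 18.2 and 8.83 CPM at stage 12, with 15 of 23 higher in the paired fit. The middle groups had the highest median log2 fold change (4.31, against 2.93 for groups 1 to 4 and 2.1 for groups 9 to 13), a difference between groups that was not tested. At stage 12 a mean of 1 CPM was reached by 4 of 22 genes in groups 1 to 4, 2 of 17 in groups 5 to 8 and 3 of 23 in groups 9 to 13. The medians and their order therefore depend on the prior count. All 4 clusters contributed: the paired fit called 12 of 16 genes of cluster A, 13 of 14 of B, 11 of 18 of C and 9 of 14 of D.

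hoxc6.L had 9.04, 96.6 and 51.8 CPM at stage 13, against 0.128, 2.64 and 0.631 CPM at stage 12. Each stage 13 library exceeded all stage 12 libraries, and it rose in the paired fit (log2 fold change 5.66 ± 0.25, SE, edgeR adjusted p = 8.88e-09, and 0.0836 without the block). hoxa7.S had 2.43, 27.1 and 15.8 CPM at stage 13, against 0, 0.485 and 0.263 CPM at stage 12. hoxa9.L had 4.63, 31.1 and 27.5 CPM at stage 13, against 0.192, 3.02 and 0.893 CPM at stage 12. hoxa10.L, a posterior paralogue, had 2.59, 26.8 and 18.4 CPM at stage 13, against 0.128, 1.51 and 0.946 CPM at stage 12. In each of these 4 genes replicate 1 was the lowest library of its stage, and no stage 13 value lay under a stage 12 value. The called gene hoxb8 had 2.92, 13.9 and 9.13 CPM at stage 13, against 0.256, 0.863 and 0.158 CPM at stage 12 (log2 fold change 4.31 ± 0.79 (SE), edgeR adjusted p = 0.0345, and 1.67e-06 in the paired fit). hoxa5.S, also called, had 0.331, 2.96 and 2.65 CPM at stage 13, against 0, 0 and 0.0525 CPM at stage 12 (edgeR adjusted p = 0.034), and hoxb5.S had 1.05, 3.40 and 2.92 CPM at stage 13, against 0, 0.216 and 0.263 CPM at stage 12 (edgeR adjusted p = 0.0485).

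Both copies of hoxd1 were called in neither edgeR fit. hoxd1.L had 69.0, 131 and 112 CPM at stage 13, against 9.65, 68.0 and 32.4 CPM at stage 12 (edgeR adjusted p = 0.277, paired 0.0953). hoxd1.S was likewise higher at stage 13 in each pair and uncalled, while DESeq2 and limma voom with the block called both copies higher. hoxd1 is a direct target of retinoic acid in frog embryos and is active during gastrulation.

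**Figure D3:**
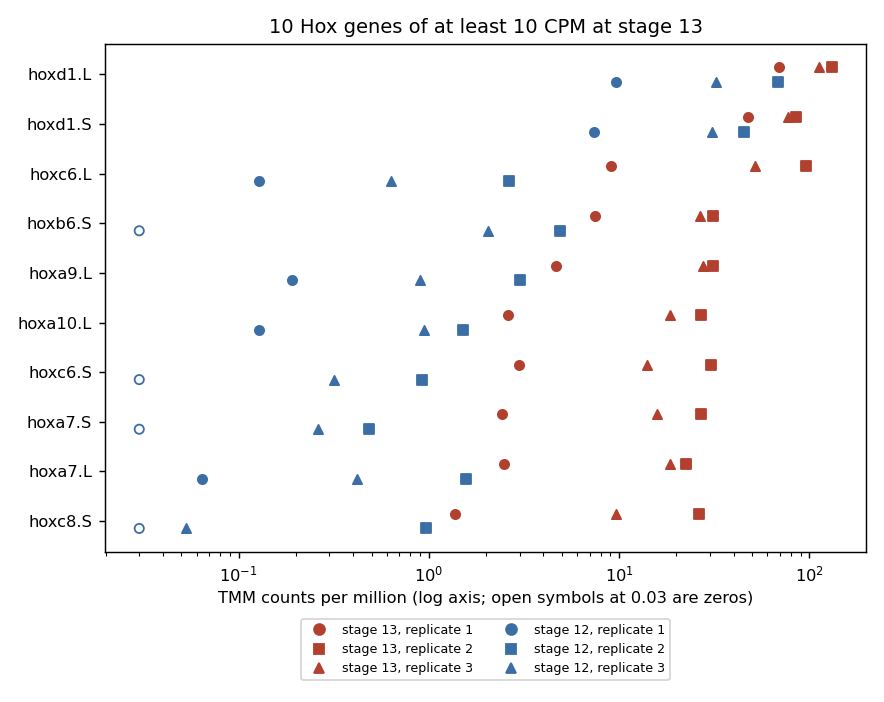
Level of 10 Hox genes with a mean of at least 10 CPM at stage 13, in CPM on a log axis, with genes down the page, stage 13 libraries above stage 12 libraries for each gene and one point per library; open symbols mark values of 0. The stage 12 points of hoxc6, hoxa7, hoxa10 and hoxc8 lie at or under 2.64 CPM, and replicate 1 is the lowest stage 13 point throughout.

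In the BMP pathway the secreted modulators szl.L and bmper.L and the ventral target gene ventx2.1.S rose, while the ligand gene bmp7.2.S fell. Of 74 members 3 rose and 1 fell without the block, and 22 rose and 8 fell in the paired fit (29.7% and 10.8%). szl.L encodes sizzled, a secreted inhibitor of the proteases that cleave Chordin and itself a target of BMP signalling. It had 328, 349 and 393 CPM at stage 13, against 145, 213 and 205 CPM at stage 12, 3 values above all stage 12 values (log2 fold change 0.93 ± 0.17 (SE), edgeR adjusted p = 0.0316, and 1.78e-05 in the paired fit). bmper.L, which encodes a secreted BMP-binding protein, had 32.6, 38.3 and 44.7 CPM at stage 13, against 6.13, 16.2 and 14.2 CPM at stage 12 and rose (log2 fold change 1.66 ± 0.35 (SE), edgeR adjusted p = 0.0401, and 6.74e-05 in the paired fit). ventx2.1.S, a ventral homeobox gene induced by BMP, had 441, 417 and 502 CPM at stage 13, against 265, 313 and 298 CPM at stage 12 and rose (log2 fold change 0.64 ± 0.13 (SE), edgeR adjusted p = 0.0385, and 2.85e-04 in the paired fit). Its homeolog ventx2.1.L was called in neither fit, at 296, 231 and 223 CPM at stage 13, against 215, 256 and 248 CPM at stage 12.

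bmp7.2.S fell, at 1.93, 1.51 and 2.101 CPM at stage 13, against 9.46, 9.70 and 6.15 CPM at stage 12 (log2 fold change -2.18 ± 0.33 (SE), edgeR adjusted p = 0.0232, and 5.28e-05 in the paired fit), and its homeolog bmp7.2.L, at 563, 391 and 349.9 CPM at stage 13, against 820.2, 813 and 623 CPM at stage 12, fell in the paired fit. The other ligand genes of the treatment's kind went the opposite way in the paired fit: bmp4.L had 55.6, 61.6 and 70.2 CPM at stage 13, against 42.5, 37.6 and 43.4 CPM at stage 12 (edgeR adjusted p = 0.00327) and bmp7.1.L had 88.5, 213 and 222 CPM at stage 13, against 52.1, 90.6 and 94.1 CPM at stage 12 (edgeR adjusted p = 1.39e-05). These are transcripts of the caps and not the protein that was added. Other genes higher in the paired fit included the homeobox targets msx1.L, at 224, 369.5 and 251 CPM at stage 13, against 57.1, 149 and 133 CPM at stage 12, and ventx1.1.S, at 79.9, 172 and 143 CPM at stage 13, against 32.8, 82.6 and 71.9 CPM at stage 12, the Chordin-cleaving protease gene tll1.S, the type II receptor genes bmpr2.L and bmpr2.S, and the inhibitory Smad gene smad7.L. Not every target moved: id3.L, a helix-loop-helix inhibitor gene, had 405, 402 and 425 CPM at stage 13, against 398, 479 and 428 CPM at stage 12, and bambi.L, a decoy receptor gene, had 405, 347 and 346 CPM at stage 13, against 314, 334 and 345 CPM at stage 12, both called in neither fit.

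In the paired fit the Wnt, Notch, retinoic acid and FGF lists each had more members called higher than lower, although the upward share of the FGF list (16.4%) was close to that of all genes (12.9%). Of 88 Wnt pathway genes 3 rose and none fell without the block, and 24 rose and 7 fell in the paired fit (27.3% and 7.95%). sp5.S, a transcriptional target of Wnt signalling, had 9.82, 12.48 and 7.85 CPM at stage 13, against 0.192, 1.62 and 1.21 CPM at stage 12 (log2 fold change 3.29 ± 0.61 (SE), edgeR adjusted p = 0.0332, and 5.83e-04 in the paired fit). The receptor gene fzd3.L had 30.0, 46.6 and 33.2 CPM at stage 13, against 12.1, 18.3 and 14.2 CPM at stage 12 and rose (log2 fold change 1.3 ± 0.25 (SE), edgeR adjusted p = 0.0345, and 2.08e-05 in the paired fit). rspo2.L, whose R-spondin product amplifies Wnt signals, had 7.996, 19.2 and 15.5 CPM at stage 13, against 3.003, 5.39 and 4.68 CPM at stage 12 and rose (log2 fold change 1.70 ± 0.38 (SE), edgeR adjusted p = 0.0475, and 3.93e-05 in the paired fit). In these 3 genes no stage 13 value lay under a stage 12 value. The noncanonical ligand gene wnt5a.S had 3.75, 35.1 and 29.4 CPM at stage 13, against 0.639, 4.04 and 1.21 CPM at stage 12 (paired edgeR adjusted p = 1.00e-04). The receptor gene fzd10.L had 136, 329 and 199 CPM at stage 13, against 13.4, 87.2 and 51.3 CPM at stage 12 (paired edgeR adjusted p = 0.0316). axin2.S, a feedback target, had 5.79, 33.5 and 17.9 CPM at stage 13, against 0.511, 6.58 and 2.73 CPM at stage 12 (paired edgeR adjusted p = 1.26e-06). The E3 ligase genes rnf43 and znrf3, which remove Frizzled receptors, were higher at both homeologs in the paired fit, and the inhibitor gene sfrp2 was lower at both.

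Of 61 Notch pathway genes 3 rose without the block, and 25 rose and 2 fell in the paired fit (41.0% and 3.28%). hes3.3.L, a hairy/enhancer-of-split repressor gene, had 19.5, 34.9 and 32.5 CPM at stage 13, against 3.195, 9.81 and 5.15 CPM at stage 12 (log2 fold change 2.25 ± 0.43 (SE), edgeR adjusted p = 0.0345, and 1.18e-06 in the paired fit). hes8.L, of the same family, had 11.1, 28.4 and 24.4 CPM at stage 13, against 1.34, 5.01 and 3.52 CPM at stage 12 and rose (log2 fold change 2.68 ± 0.53 (SE), edgeR adjusted p = 0.0403, and 3.36e-07 in the paired fit). The receptor gene notch2.L had 9.87, 18.2 and 14.98 CPM at stage 13, against 4.54, 4.96 and 5.94 CPM at stage 12 and rose (log2 fold change 1.48 ± 0.30 (SE), edgeR adjusted p = 0.0367, and 1.54e-04 in the paired fit). The ligand gene dll1.L had 107, 252 and 246 CPM at stage 13, against 65.5, 113 and 119 CPM at stage 12 and rose in the paired fit (edgeR adjusted p = 2.27e-05). hes6.1.L and esr10.S, hairy-related genes of the presomitic mesoderm and tailbud, rose there too, at 111, 287 and 254 CPM at stage 13, against 40.6, 117 and 117 CPM at stage 12 for hes6.1.L. hes8, hes9-1 and hes6.1 rose in the paired fit on both copies. lfng.L, which encodes a glycosyltransferase that modifies Notch, fell in the paired fit, at 11.6, 3.59 and 3.61 CPM at stage 13, against 28.9, 9.17 and 8.72 CPM at stage 12.

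In retinoic acid signalling 2 of 30 genes rose without the block and 10 rose and 4 fell in the paired fit (33.3% and 13.3%, against 12.9% and 13.0% of all genes). cyp26c1.S, which encodes an enzyme that degrades retinoic acid, had 0.938, 2.77 and 3.88 CPM at stage 13, against 0.0639, 0.216 and 0.210 CPM at stage 12 (log2 fold change 3.88 ± 0.73 (SE), edgeR adjusted p = 0.0327, and 7.45e-05 in the paired fit). The receptor gene rxra.S had 5.68, 9.77 and 9.59 CPM at stage 13, against 1.85, 2.43 and 3.52 CPM at stage 12 (log2 fold change 1.68 ± 0.37 (SE), edgeR adjusted p = 0.0454, and 1.57e-04 in the paired fit). cyp26a1.L, another enzyme of degradation, had 45.9, 205 and 252 CPM at stage 13, against 11.6, 91.7 and 55.1 CPM at stage 12 (paired edgeR adjusted p = 6.40e-04). aldh1a2.L, which encodes an enzyme of retinoic acid synthesis, had 2.76, 6.55 and 8.72 CPM at stage 13, against 6.90, 11.3 and 11.0 CPM at stage 12 and fell in the paired fit (edgeR adjusted p = 0.0207), which DESeq2 also called with the block (0.0362) and limma voom did not (0.0986). Its more abundant homeolog aldh1a2.S had 14.8, 36.2 and 107 CPM at stage 13, against 22.7, 43.9 and 120 CPM at stage 12. None of these tests called aldh1a2.S (paired edgeR adjusted p = 0.0729).

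Of 61 FGF pathway genes 10 rose and 2 fell in the paired fit (16.4% and 3.28%), against 12.9% and 13.0% of all genes. Without the block edgeR called 0 of them (2 at an unadjusted p under 0.05) and DESeq2 called 1 in each direction. spry4.L, a feedback inhibitor, had 30.3, 100.3 and 140.0 CPM at stage 13, against 10.3, 38.9 and 47.9 CPM at stage 12 (paired edgeR adjusted p = 1.18e-06). The ligand gene fgf20.L had 1.99, 10.7 and 12.47 CPM at stage 13, against 1.79, 3.56 and 3.84 CPM at stage 12 (paired edgeR adjusted p = 0.00641). The receptor gene fgfr2.L fell in the paired fit, at 29.4, 20.0 and 23.5 CPM at stage 13, against 66.0, 26.5 and 32.4 CPM at stage 12. spry4.L and fgf20.L were lowest in replicate 1 at both stages.

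Lateral plate and heart genes had 4 of 55 higher without the block, and 14 higher and 1 lower in the paired fit (25.5% and 1.82%). tbx2.L and tbx3.S are T-box repressor genes of ventral ectoderm, heart and limb. tbx2.L had 91.2, 67.8 and 75.5 CPM at stage 13, against 25.2, 34.3 and 36.4 CPM at stage 12 (log2 fold change 1.29 ± 0.20 (SE), edgeR adjusted p = 0.0255, and 1.52e-04 in the paired fit). tbx3.S had 63.6, 89.8 and 76.99 CPM at stage 13, against 16.2, 38.4 and 24.6 CPM at stage 12 (log2 fold change 1.54 ± 0.31 (SE), edgeR adjusted p = 0.0374, and 3.23e-06 in the paired fit). For tbx2.L replicate 1 was the highest library at stage 13 and the lowest at stage 12. The Hox cofactor gene meis3.L had 20.3, 18.9 and 12.1 CPM at stage 13, against 4.28, 7.82 and 5.57 CPM at stage 12 and rose (log2 fold change 1.54 ± 0.32 (SE), edgeR adjusted p = 0.0384, and 2.27e-04 in the paired fit). mef2c.S, a factor of heart and skeletal muscle, had 1.54, 2.96 and 3.56 CPM at stage 13, against 0.128, 0.377 and 0.631 CPM at stage 12 and rose (log2 fold change 2.79 ± 0.63 (SE), edgeR adjusted p = 0.0492, and 2.62e-04 in the paired fit). foxf1.L, the forkhead gene of splanchnic lateral plate, had 2.32, 24.3 and 14.7 CPM at stage 13, against 0.703, 6.25 and 2.31 CPM at stage 12 and rose in the paired fit (edgeR adjusted p = 1.79e-05). isl1.L, a LIM homeobox gene of heart precursors and other tissues, had 12.7, 8.19 and 15.6 CPM at stage 13, against 1.66, 3.34 and 6.57 CPM at stage 12 and rose in the paired fit (edgeR adjusted p = 0.0024). nkx2-5.L, a homeobox gene of the heart field, had 0, 0.567 and 0.137 CPM at stage 13, against 0, 0.0539 and 0.158 CPM at stage 12.

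Among 66 paraxial mesoderm and muscle genes, mef2c.S was the only one called without the block, and 12 rose and 1 fell in the paired fit (18.2% and 1.52%, against 12.9% and 13.0% of all genes). meox2.S, a homeobox gene of somites, had 1.65, 49.9 and 14.1 CPM at stage 13, against 0.0639, 0.917 and 0.736 CPM at stage 12 (paired edgeR adjusted p = 1.07e-07). actc1.S, cardiac alpha actin, had 1.32, 12.48 and 14.6 CPM at stage 13, against 0, 0.809 and 0.788 CPM at stage 12 (paired edgeR adjusted p = 1.02e-06). Both were higher at stage 13 in each pair, and lowest in replicate 1 at both stages. The myogenic factor gene myf5.L had 1.82, 5.61 and 5.02 CPM at stage 13, against 0, 0.755 and 0.631 CPM at stage 12 (paired edgeR adjusted p = 1.37e-04). myod1.S, of the same family, had 7.00, 16.4 and 18.7 CPM at stage 13, against 3.96, 9.22 and 9.30 CPM at stage 12 (paired edgeR adjusted p = 0.00288). pygm.L, muscle glycogen phosphorylase, rose in the paired fit, and its homeolog pygm.S was called in neither fit.

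Of 50 blood and endothelial genes 6 rose and 3 fell in the paired fit (12.0% and 6.0%, against 12.9% and 13.0% of all genes). Without replicate 1 the paired test called 10 higher and 5 lower, and the test without the block 4 and 0. aplnr.S, which encodes the apelin receptor, was among the genes called higher only without replicate 1: it had 10.6, 121 and 115 CPM at stage 13, against 19.4, 35.6 and 40.9 CPM at stage 12 (paired edgeR adjusted p = 0.541 over all 6 libraries). With all 6 and no block edgeR called 0, with 10 at an unadjusted p under 0.05, and DESeq2 called 3 higher and 2 lower. gata2.L, a GATA factor of blood precursors and of ventral ectoderm, had 468, 336 and 145 CPM at stage 13, against 295, 190.2 and 167 CPM at stage 12, with no call in either fit. tal1.L, which encodes the blood and vessel regulator SCL, was at 0 in every library, and gata1.L did not exceed 0.63 CPM. cebpa.S, a myeloid factor gene, had 2.87, 14.9 and 27.5 CPM at stage 13, against 1.85, 2.64 and 4.05 CPM at stage 12 (paired edgeR adjusted p = 0.00726). sox18.S, an endothelial Sox gene, went the other way, at 1.49, 3.40 and 0.959 CPM at stage 13, against 5.05, 10.5 and 8.35 CPM at stage 12 (paired edgeR adjusted p = 1.79e-04). The list's flt1.L had 0.882, 4.66 and 4.93 CPM at stage 13, against 0.639, 0.701 and 0.631 CPM at stage 12, and rose in the paired fit (edgeR adjusted p = 0.00318). lmo2.S (edgeR adjusted p = 0.0017), sox7.L and ldb1 on both copies also rose there, and sox18.L and tek.S fell.

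None of 31 intermediate mesoderm genes rose in the paired fit and 8 fell (25.8%, against 13.0% of all genes). Without the block edgeR called 0 (2 at an unadjusted p under 0.05), as did DESeq2. The 8 were irx1 and irx2 at both homeologs, irx3.L, lhx1 at both homeologs and osr2.S. limma voom with the block did not call lhx1.L (adjusted p = 0.110) or osr2.S (0.245). The fold of lhx1.L within the replicates was 1.23, 0.0816 and 0.301, so it was not lower in replicate 1. The Iroquois (irx) genes also belong to neural plate and were counted in that list. irx1.S had 6.84, 0.630 and 1.55 CPM at stage 13, against 24.7, 7.33 and 5.202 CPM at stage 12, with the highest value in replicate 1 at each stage. lhx1.S, a LIM homeobox gene of pronephros and organizer, had 0.607, 3.47 and 4.79 CPM at stage 13, against 1.66, 10.2 and 11.3 CPM at stage 12, with the lowest value in replicate 1. Of 40 organizer and dorsal mesoderm genes 1 fell without the block and 4 in the paired fit (10.0%, against 13.0% of all genes), namely lhx1 and not at both homeologs, so both lhx1 copies count in each list. All 3 paired tests called 3 of these organizer genes lower, without lhx1.L. Without replicate 1 the paired test called 2 intermediate mesoderm genes higher and 9 lower, and 1 organizer gene higher and 8 lower. not.S, a homeobox gene of the notochord that is also transcribed broadly before gastrulation, had 3.36, 1.26 and 2.69 CPM at stage 13, against 17.1, 10.8 and 11.8 CPM at stage 12 (log2 fold change -2.43 ± 0.40 (SE), edgeR adjusted p = 0.0255, and 4.76e-06 in the paired fit). not.L had 17.8, 4.097 and 7.44 CPM at stage 13, against 66.9, 30.4 and 40.7 CPM at stage 12 (paired edgeR adjusted p = 1.01e-06). The organizer genes gsc and chrd were at or near 0: chrd.L had 0.0551, 0.0630 and 0.411 CPM at stage 13, against 1.15, 0 and 0.683 CPM at stage 12.

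Of 93 neural plate genes 3 rose and 4 fell without the block, and 7 rose and 16 fell in the paired fit (7.53% and 17.2%, against 12.9% and 13.0% of all genes). elavl3, which encodes a neuronal RNA-binding protein, had 4.19, 2.65 and 3.06 CPM at stage 13, against 17.1, 12.3 and 14.1 CPM at stage 12 (log2 fold change -2.13 ± 0.29 (SE), edgeR adjusted p = 0.0181, and 4.50e-06 in the paired fit). sox2.L, a factor of neural and pluripotent cells, had 22.6, 13.8 and 21.8 CPM at stage 13, against 36.4, 42.4 and 42.8 CPM at stage 12 and fell (log2 fold change -1.06 ± 0.23 (SE), edgeR adjusted p = 0.0459, and 4.44e-04 in the paired fit). zic1.L, a zinc-finger gene of the neural plate, had 4.25, 1.76 and 2.79 CPM at stage 13, against 16.2, 6.58 and 11.2 CPM at stage 12 and fell (log2 fold change -1.94 ± 0.44 (SE), edgeR adjusted p = 0.0479, and 2.03e-05 in the paired fit). The 3 genes were lower in each stage 13 library than in any stage 12 library. The exceptions were gbx2 genes, homeobox genes of the hindbrain border that are also active in posterior and ventral tissue: gbx2.1.L had 13.1, 13.1 and 7.31 CPM at stage 13, against 0.320, 2.53 and 0.683 CPM at stage 12 (log2 fold change 3.22 ± 0.70 (SE), edgeR adjusted p = 0.0499, and 0.00239 in the paired fit), and gbx2.2.L had 5.63, 4.85 and 2.79 CPM at stage 13, against 0.128, 0.970 and 0.315 CPM at stage 12 (log2 fold change 3.19 ± 0.67 (SE), edgeR adjusted p = 0.0404, and 2.49e-04 in the paired fit). Without replicate 1 no neural plate gene was called higher and 2 were called lower without the block, against 8 and 17 in the paired test. The gbx2 calls were among those lost, with an edgeR adjusted p of 0.0892 for gbx2.1.L and 0.0852 for gbx2.2.L. In the neural crest and border list (38 genes, which shares gbx2 and zic1 with the neural list) 5 rose and 2 fell without the block, and 11 and 5 in the paired fit (28.9% and 13.2%). The 5 were myc.S, myc.L, gbx2.1.L, gbx2.2.L and gbx2.2.S, and myc is also counted in the pluripotency list. gbx2.2.S had 0.938, 0.567 and 0.822 CPM at stage 13 and 0 in each stage 12 library. The crest genes snai2, sox8, sox9, sox10, foxd3 and twist1 were not called without the block. myc.S, a gene of the border and of dividing cells, had 107, 120.3 and 107 CPM at stage 13, against 36.4, 54.5 and 55.5 CPM at stage 12 (log2 fold change 1.19 ± 0.20 (SE), edgeR adjusted p = 0.0255, and 1.25e-05 in the paired fit). prdm1.L, which encodes the repressor Blimp1, had 23.2, 11.7 and 13.0 CPM at stage 13, against 72.0, 56.3 and 55.8 CPM at stage 12 and fell (log2 fold change -1.94 ± 0.29 (SE), edgeR adjusted p = 0.0219, and 4.61e-07 in the paired fit).

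Epidermal genes, keratins among them, rose between the same libraries. Of 98 members 11 rose and none fell without the block, and 34 rose and 9 fell in the paired fit (34.7% and 9.18%). The list's summed level was 39889, 32538 and 25602 CPM at stage 13, against 22672, 25066 and 21255 CPM at stage 12, with replicate 1 highest at stage 13. xk81a1.L, the epidermal keratin gene used as a marker of this tissue, had 1825, 1455 and 1054 CPM at stage 13, against 516, 689 and 537 CPM at stage 12 (log2 fold change 1.31 ± 0.21 (SE), edgeR adjusted p = 0.0255, and 0.00289 in the paired fit), and without replicate 1 its log2 fold change was 1.03 (edgeR adjusted p = 0.0481). esrp1.S, an epithelial splicing regulator, had 279, 248 and 194 CPM at stage 13, against 101, 119.8 and 103 CPM at stage 12 (log2 fold change 1.15 ± 0.17 (SE), edgeR adjusted p = 0.0212, and 7.20e-06 in the paired fit). ppl.L, which encodes the cornified-envelope protein periplakin, had 77.1, 39.0 and 26.03 CPM at stage 13, against 4.35, 8.79 and 5.097 CPM at stage 12 (log2 fold change 2.96 ± 0.47 (SE), edgeR adjusted p = 0.028, and 0.0293 in the paired fit). These 3 genes and the other 8 were higher in every stage 13 library than in any at stage 12, and at stage 13 all 11 were highest in replicate 1, where the mesoderm sum was lowest, and lowest in replicate 3. Without replicate 1 the test without the block called 5 epidermal genes higher and 2 lower, and the paired test called 35 and 13.

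The 11 called epidermal genes were esrp1.S, esrp1.L, xk81a1.L, ppl.L, ppl.S, dlx2.L, krt80.S, krt8.L, krt8.S, krt8.2.S and krt5.7.S, 6 of which are keratin genes, xk81a1.L among them. In all 11 the fold change was largest within replicate 1. For ppl.L the fold changes were 17.7, 4.44 and 5.11. ppl.S lost its call in the paired edgeR fit (adjusted p = 0.0766) and kept it in the paired DESeq2 and limma voom tests (2.15e-06 and 0.0036). The AP-2 gene tfap2a.L had 297, 136 and 92.3 CPM at stage 13, against 380.3, 194 and 178 CPM at stage 12 and foxi4.2.S, a forkhead gene of non-neural ectoderm, had 227, 49.9 and 54.4 CPM at stage 13, against 405, 156 and 182 CPM at stage 12, and both fell in the paired fit (edgeR adjusted p = 0.00158 and 9.30e-04).

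Genes of the scattered cell types of the embryonic skin had more members higher than lower. Of 57 genes of ionocytes, multiciliated and secretory cells 3 rose and 1 fell without the block, and 15 rose and 6 fell in the paired fit (26.3% and 10.5%). otog.L encodes otogelin, a secreted glycoprotein related to mucins. It had 1695, 1388 and 615 CPM at stage 13, against 70.9, 88.6 and 88.9 CPM at stage 12 (log2 fold change 3.90 ± 0.39 (SE), edgeR adjusted p = 0.0181, and 0.0397 in the paired fit), and without replicate 1 its edgeR adjusted p was 0.042. foxj1.2.L, related to the master regulator of motile cilia, had 13.6, 4.60 and 4.201 CPM at stage 13, against 0.320, 0.970 and 0.368 CPM at stage 12 (log2 fold change 3.73 ± 0.65 (SE), edgeR adjusted p = 0.0297, and 0.00129 in the paired fit). foxn4.L, a forkhead gene of multiciliated cells, had 25.6, 18.7 and 17.9 CPM at stage 13, against 8.63, 11.0 and 7.88 CPM at stage 12 and rose (log2 fold change 1.18 ± 0.25 (SE), edgeR adjusted p = 0.0409, and 3.61e-04 in the paired fit). mcidas, which starts the multiciliated programme, had 65.5, 14.2 and 14.7 CPM at stage 13, against 7.16, 5.07 and 1.31 CPM at stage 12 and rose in the paired fit (edgeR adjusted p = 0.0137). mcidas was highest in replicate 1 at each stage, and stage 13 replicates 2 and 3 also lay above all stage 12 libraries. rfx2.L, a cilia regulator, fell, at 88.7, 68.9 and 83.5 CPM at stage 13, against 161, 190.1 and 126 CPM at stage 12 (log2 fold change -0.99 ± 0.19 (SE), edgeR adjusted p = 0.0332, and 8.67e-04 in the paired fit).

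**Figure D4:**
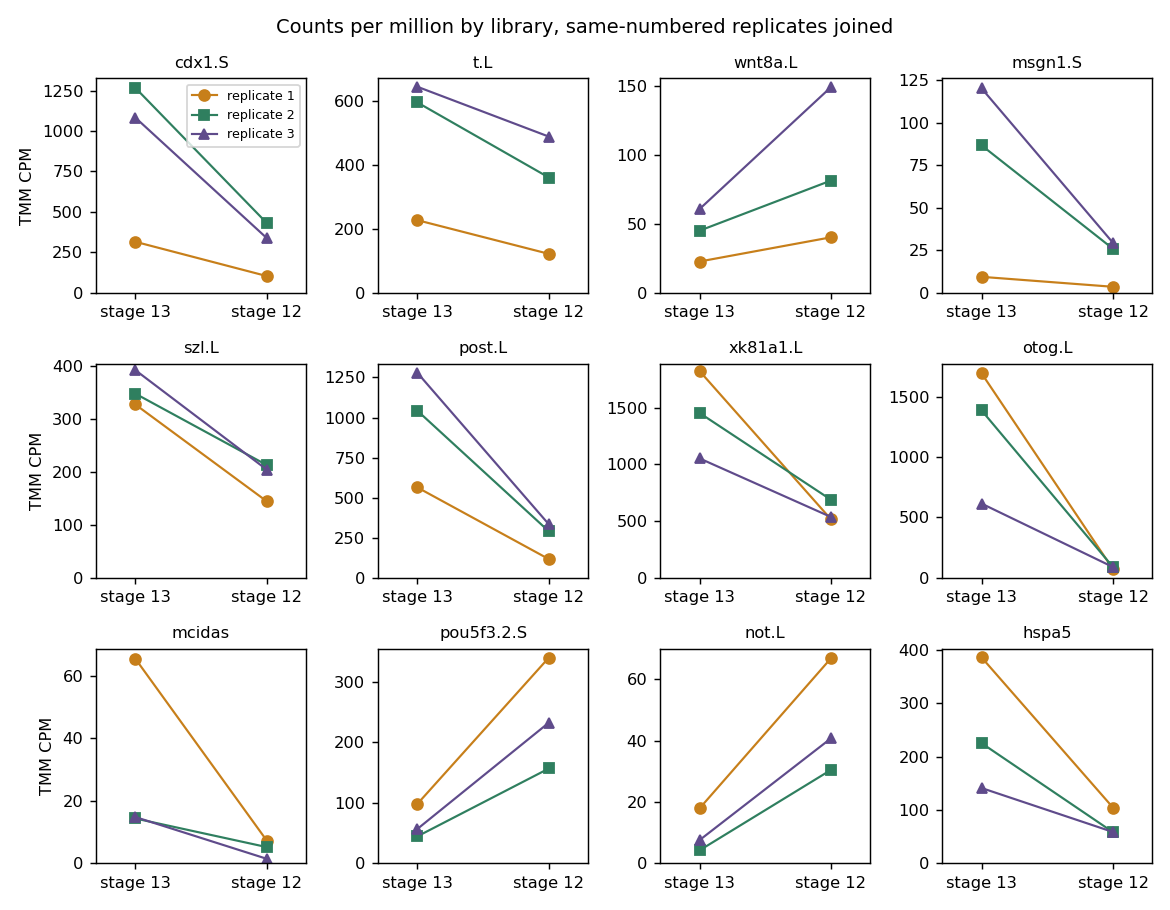
Level of 12 genes in the 6 libraries, in CPM, one panel per gene with its own axis, stage 13 left of stage 12 and a line joining the libraries of each replicate number. For cdx1.S, t.L and msgn1.S the line of replicate 1 lies lowest, for xk81a1.L, otog.L and mcidas it is highest at stage 13, and the lines of post.L and pou5f3.2.S slope the same way in all 3 replicates.

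Genes of pluripotency and of the maternal store had more members lower than higher at stage 13. Of 85 members 2 rose and 10 fell without the block, and 7 rose and 31 fell in the paired fit (8.24% and 36.5%), with a median log2 fold change of -0.39. pou5f3.2.S, a frog Oct4 relative, had 97.9, 44.1 and 56.3 CPM at stage 13, against 340.3, 157 and 233 CPM at stage 12 (log2 fold change -1.88 ± 0.39 (SE), edgeR adjusted p = 0.0497, and 3.10e-08 in the paired fit), and fold changes of 0.288, 0.281 and 0.242 within the replicates. foxh1.2.L, related to the Nodal cofactor gene foxh1, had 4.80, 3.09 and 2.01 CPM at stage 13, against 32.1, 13.1 and 12.0 CPM at stage 12 (log2 fold change -2.53 ± 0.49 (SE), edgeR adjusted p = 0.0357, and 1.21e-06 in the paired fit). dand5.S, which encodes a Cerberus-family inhibitor of Nodal, had 1.05, 1.01 and 0.731 CPM at stage 13, against 7.35, 6.58 and 5.46 CPM at stage 12 (log2 fold change -2.79 ± 0.35 (SE), edgeR adjusted p = 0.018, and 1.01e-05 in the paired fit). The 3 were lower in each stage 13 library than in any at stage 12. The oocyte linker histone genes h1foo.L and h1foo.S, the oocyte growth factor gene gdf9.L and pou5f3.3.L fell as well. myc.S and myc.L were the 2 members that rose.

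Cell cycle genes moved both ways, with several cyclins lower. Of 92 members 3 rose and 5 fell without the block, and 17 rose and 30 fell in the paired fit (18.5% and 32.6%). mcm5.S, a subunit of the replicative helicase, had 20.6, 25.4 and 23.3 CPM at stage 13, against 5.05, 5.23 and 5.41 CPM at stage 12 (log2 fold change 2.14 ± 0.22 (SE), edgeR adjusted p = 0.0167, and 1.21e-06 in the paired fit), a change that differed little between replicates. The helicase genes mcm6.2.L and mcm6.2.S rose too. ccnb1.2.L, a mitotic cyclin, had 266, 296 and 244 CPM at stage 13, against 533, 425 and 426 CPM at stage 12 (log2 fold change -0.78 ± 0.14 (SE), edgeR adjusted p = 0.0316, and 7.90e-05 in the paired fit). ccna1.L, the embryonic cyclin A, had 1.43, 1.01 and 1.46 CPM at stage 13, against 8.82, 5.66 and 8.77 CPM at stage 12 (log2 fold change -2.56 ± 0.35 (SE), edgeR adjusted p = 0.0186, and 9.32e-06 in the paired fit). wee2.S, which encodes the kinase that restrains early embryonic mitosis, fell with them, as did ccnb1.S and ccnb1.L. In the paired fit ccne1, ccne2, ccna2, ccnb1, ccnb2 and ccnb3 had at least 1 homeolog lower and none higher, and ccnd1.S rose. mcm2 was called in opposite directions on its copies, mcm2.S higher and mcm2.L lower, the lower call by the paired edgeR fit and by neither DESeq2 nor limma voom with the block.

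Many ribosomal protein genes rose by small steps. Of 139 members 6 rose without the block and 92 in the paired fit (66.2%), and none fell in either. 73 rose in all 3 paired tests (52.5%). Without replicate 1 none of the 6 calls was kept without the block, and 76 genes rose in the paired test. Their median log2 fold change was 0.41, and 0.31 when libraries were scaled by totals alone. rps3a.L had 115, 106 and 107 CPM at stage 13, against 65.1, 61.9 and 64.1 CPM at stage 12 (log2 fold change 0.78 ± 0.14 (SE), edgeR adjusted p = 0.0297, and 1.47e-04 in the paired fit). The called genes rpl4.S, rps7, rps3.S and rpl7a.S had log2 fold changes between 0.61 and 0.82. The list's summed level was 18925, 15715 and 16727 CPM at stage 13, against 14618, 10939 and 13948 CPM at stage 12.

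Genes of the extracellular matrix and of adhesion had medians close to that of all genes. Of 198 matrix and integrin genes 2 rose and 2 fell without the block, and 24 rose and 12 fell in the paired fit (12.1% and 6.06%, against 12.9% and 13.0% of all genes), with a median of 0.00. lamb1.L, the laminin beta 1 chain, had 117, 155 and 117 CPM at stage 13, against 21.02, 47.3 and 25.1 CPM at stage 12 (log2 fold change 2.06 ± 0.31 (SE), edgeR adjusted p = 0.0255, and 3.44e-07 in the paired fit). sparc.L, which encodes a collagen-binding matrix protein, had 0.662, 13.3 and 8.58 CPM at stage 13, against 0, 0.108 and 0.158 CPM at stage 12 and rose in the paired fit (edgeR adjusted p = 3.25e-07, and 0.0542 without the block). The fibronectin receptor subunit gene itga5.S had 8.11, 21.6 and 12.9 CPM at stage 13, against 1.98, 4.26 and 4.89 CPM at stage 12 (paired edgeR adjusted p = 3.29e-05). All 3 had higher values in every stage 13 library. Membrane-type protease gene mmp15.S fell, at 10.6, 8.07 and 10.5 CPM at stage 13, against 28.3, 20.6 and 29.0 CPM at stage 12 (log2 fold change -1.41 ± 0.24 (SE), edgeR adjusted p = 0.027, and 2.28e-05 in the paired fit).

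Of 182 adhesion and guidance genes 6 rose and 2 fell without the block, and 28 rose and 18 fell in the paired fit (15.4% and 9.89%, against 12.9% and 13.0% of all genes). The semaphorin receptor genes differed: plxna2.S had 14.2, 39.5 and 19.1 CPM at stage 13, against 1.47, 4.37 and 2.26 CPM at stage 12 (log2 fold change 3.16 ± 0.53 (SE), edgeR adjusted p = 0.0301, and 5.28e-08 in the paired fit), plxna2.L rose likewise, and plxna1.S fell, at 29.1, 27.3 and 26.1 CPM at stage 13, against 74.8, 48.0 and 61.4 CPM at stage 12 (log2 fold change -1.16 ± 0.20 (SE), edgeR adjusted p = 0.0295, and 4.36e-05 in the paired fit). robo2 and robo3.S, receptors for Slit, rose in the paired fit: robo2 had 9.15, 75.4 and 39.9 CPM at stage 13, against 0.447, 5.45 and 4.83 CPM at stage 12 (edgeR adjusted p = 9.92e-08) and robo3.S had 32.1, 160.4 and 114 CPM at stage 13, against 5.37, 36.1 and 18.0 CPM at stage 12 (edgeR adjusted p = 3.11e-08). pcdh10.L and pcdh18.L, protocadherins, rose without the block. epha4.L, an Eph receptor of the mesoderm, had 42.7, 118 and 193 CPM at stage 13, against 83.8, 153 and 295 CPM at stage 12 and fell in the paired fit (edgeR adjusted p = 0.00105).

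Of 48 endoderm genes 2 rose and 2 fell in the paired fit (4.17% each), and without the block edgeR called 0 (1 at an unadjusted p under 0.05), as did DESeq2. sox17a.L, the endodermal Sox gene, had 5.13, 46.2 and 91.8 CPM at stage 13, against 5.88, 21.3 and 44.6 CPM at stage 12, highest in replicate 3 at both stages, and was called in neither fit. The paired test without replicate 1 called 11 endoderm genes higher and 8 lower, sox17a.L among the higher, and the test without the block 1 and 0. Of 55 stress and apoptosis genes edgeR called 0 without the block (7 at an unadjusted p under 0.05), DESeq2 called 2 higher and 1 lower, and 9 rose and 3 fell in the paired fit (16.4% and 5.45%). hspa5, the endoplasmic reticulum chaperone, had 386, 225 and 141 CPM at stage 13, against 104, 57.7 and 58.1 CPM at stage 12 (paired edgeR adjusted p = 2.20e-06). hsp70.L, an inducible heat shock gene, had 19.1, 3.97 and 10.7 CPM at stage 13, against 33.0, 10.4 and 23.3 CPM at stage 12 and fell in the paired fit (edgeR adjusted p = 4.22e-04). Of 17 germ cell and other embryonic genes edgeR called 0 without the block (4 at an unadjusted p under 0.05), DESeq2 called 2 higher and 1 lower, and 2 rose and 1 fell in the paired fit (11.8% and 5.88%, against 12.9% and 13.0% of all genes).

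The counts of the other lists also changed without replicate 1 in the test without the block. Over all 27424 genes that test called 412 higher and 208 lower, against 459 and 581 with all libraries. It called 8 of 74 BMP, 4 of 61 FGF, 8 of 88 Wnt, 10 of 61 Notch and 5 of 30 retinoic acid genes higher. These counts were above those with all libraries, and 2 BMP genes were called lower. It called 8 of 66 paraxial, 6 of 55 lateral plate, 7 of 198 matrix and 15 of 182 adhesion genes higher, also more, with 2 adhesion genes lower. The neural crest list (38 genes) had 3 higher and 2 lower, and the skin cell types (57 genes) 2 and 1. The pluripotency and maternal list (85 genes) had 3 and 8, and the cell cycle list (92 genes) 4 and 3.

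Among called genes of at least 10 CPM with a symbol, the largest rises were fat2.S, atp13a-like.S, ppl.S, otog.L, adcy9.L, tuba1cl.2.L, arhgef37.S, liph.L, sp5.S, gbx2.1.L, ugt8.S and plxna2.S. fat2.S, a giant protocadherin gene, had 11.7, 17.8 and 7.85 CPM at stage 13, against 0, 0.863 and 0.0525 CPM at stage 12 (log2 fold change 5.28 ± 1.06 (SE), edgeR adjusted p = 0.0497, and 9.45e-04 in the paired fit). adcy9.L, an adenylyl cyclase gene, had 14.4, 32.1 and 16.3 CPM at stage 13, against 1.21, 2.21 and 1.16 CPM at stage 12 (log2 fold change 3.77 ± 0.43 (SE), edgeR adjusted p = 0.0167, and 3.26e-08 in the paired fit). arhgef37.S had 6.95, 31.4 and 18.8 CPM at stage 13, against 1.15, 2.70 and 1.31 CPM at stage 12 (log2 fold change 3.46 ± 0.61 (SE), edgeR adjusted p = 0.0332, and 3.42e-07 in the paired fit). These 2 were highest in replicate 2 at stage 13, whereas atp13a-like.S, tuba1cl.2.L and liph.L were highest in replicate 1, as the epidermal genes were: liph.L, a lipase gene, had 57.0, 26.8 and 20.5 CPM at stage 13, against 3.32, 4.74 and 1.52 CPM at stage 12 (log2 fold change 3.44 ± 0.54 (SE), edgeR adjusted p = 0.0291, and 1.48e-04 in the paired fit).

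The largest falls by the same rule were in xpo6.S, foxh1.2.L, ccnb1.S, not.S, traf4.S, tor1b.L, cntln.L, rev1.L, elavl3, kifap3.S, zfyve28.L and tspan1.S. xpo6.S encodes exportin 6, which carries actin out of the nucleus. It had 3.47, 2.33 and 2.69 CPM at stage 13, against 36.7, 13.6 and 18.2 CPM at stage 12 (log2 fold change -3.01 ± 0.41 (SE), edgeR adjusted p = 0.0181, and 3.36e-07 in the paired fit). rev1.L, a translesion DNA polymerase gene, had 28.1, 16.4 and 24.6 CPM at stage 13, against 123, 83.5 and 99.2 CPM at stage 12 (log2 fold change -2.14 ± 0.25 (SE), edgeR adjusted p = 0.0167, and 4.78e-08 in the paired fit). kifap3.S, the kinesin-associated subunit gene, had 4.25, 4.98 and 3.84 CPM at stage 13, against 21.5, 20.8 and 14.7 CPM at stage 12 (log2 fold change -2.13 ± 0.26 (SE), edgeR adjusted p = 0.017, and 2.67e-06 in the paired fit). The rule admitted only genes whose stage 13 and stage 12 values did not overlap, so that separation was given by the selection. The log2 fold changes of the 12 lay between -3.01 and -2.09.

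Of 6326 pairs with both copies tested, 64 had both called in 1 direction (28 higher and 36 lower) and 465 had 1 copy called, in 386 of which the other had the same sign. In 1 pair, osbpl8, the copies were called in opposite directions. In the paired fit 878 pairs were called in the same direction on both copies and 83 in opposite directions.

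Set against the 4 earlier stages of the same lineage, most called genes were at an extreme at stage 13. Of the 459 that rose, 406 (88.5%) had their highest mean of the 6 stages there, and 225 their lowest at stage 9. Of the 581 that fell, 549 (94.5%) had their lowest mean at stage 13, and their highest was at stage 9 for 228, stage 10 for 154, stage 10.5 for 109, stage 11 for 78 and stage 12 for 12. These means share the stage 12 and stage 13 libraries with the test and are a description. On the scale of the 20 ventral mesoderm libraries, otog.L averaged 0.148 ± 0.131 CPM at stage 9, 5.09 ± 2.55 CPM at stage 11, 97.9 ± 11.8 CPM at stage 12 and 1484 ± 690.5 CPM at stage 13 (SD, n = 5 at stage 11 and 3 at the others). hoxc6.L averaged 0.330 ± 0.257 CPM at stage 11, 1.34 ± 1.58 CPM at stage 12 and 62.5 ± 52.4 CPM at stage 13. wnt8a.L was highest at stage 12, with 58.9 ± 47.8 CPM at stage 11, 107 ± 64.4 CPM at stage 12 and 50.9 ± 21.9 CPM at stage 13, means whose SDs overlap. pou5f3.2.S was highest at stage 10.5, with 1189 ± 395 CPM, and had 288 ± 110.3 CPM at stage 12 and 79.4 ± 35.2 CPM at stage 13.

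**Figure D5:**
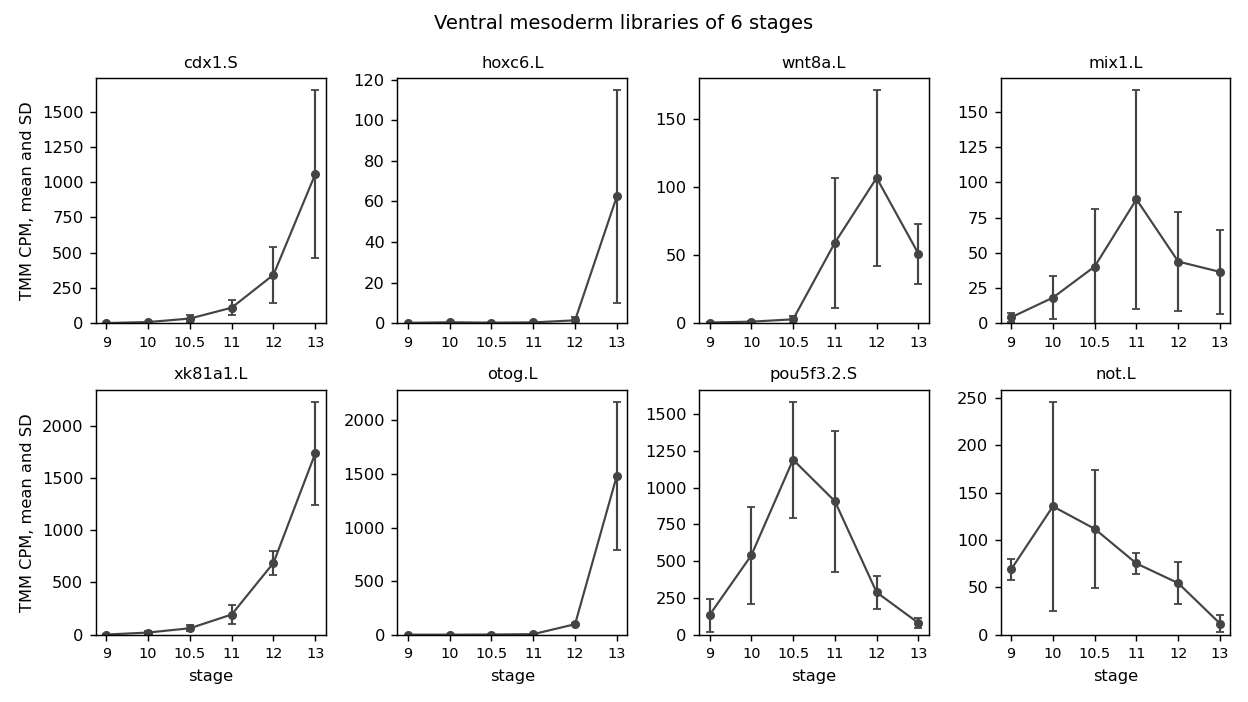
Mean level of 8 genes over the 6 stages in ventral mesoderm, in CPM on the scale of the 20 libraries, with bars of 1 SD (n = 3, and 5 at stage 11) and one panel per gene with its own axis. otog.L, xk81a1.L, cdx1.S and hoxc6.L are highest at stage 13, wnt8a.L peaks at stage 12, mix1.L at stage 11, and pou5f3.2.S and not.L fall over the last stages.

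The same step was measured in the other lineages, each with 3 libraries at either stage, and the difference between steps was tested as an interaction. For the step itself, edgeR without the block called 1420 genes higher and 642 lower in endoderm, and 0 in epidermal and in neural caps. With the block it called 4852 and 4022 in endoderm, 3801 and 3314 in epidermal caps, and 0 in neural caps. A different sequencer was used for ventral mesoderm than for the remaining lineages, so lineage and sequencer cannot be told apart in the levels. Without the block edgeR called 42 genes whose step was more positive in ventral mesoderm than in endoderm (0.153%) and 68 whose step was more negative (0.248%). Against the epidermal lineage it called 0 in either direction (0.0% and 0.0%, with 895 at an unadjusted p under 0.05, DESeq2 6), and against the neural lineage 0 (0.0% and 0.0%, with 1028 at an unadjusted p under 0.05, DESeq2 50). With a replicate block within each lineage the counts were 1190 more positive and 972 more negative against endoderm, 72 and 80 against epidermal, and 4 and 10 against neural. Without the block no step was called in epidermal or neural caps, so the absence of called differences there does not show that the steps were alike.

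On the scale of the 24 libraries of stages 13 and 12, the Hox sum averaged 548 ± 298 CPM at stage 13 and 97.6 ± 79.7 CPM at stage 12 in ventral mesoderm, against 23.1 ± 8.85 and 7.09 ± 0.883 CPM in epidermal caps, 66.7 ± 18.5 and 46.5 ± 4.35 CPM in endoderm and 92.5 ± 88.4 and 75.1 ± 33.5 CPM in neural caps (SD, n = 3 each). The core mesoderm sum averaged 6416 ± 3377 and 3455 ± 1889 CPM in ventral mesoderm, against 247 ± 76.4 and 164 ± 118 CPM in epidermal caps and 3500.1 ± 535 and 6135 ± 861 CPM in endoderm. The epidermal sum averaged 35421 ± 8152 and 23480 ± 1926 CPM in ventral mesoderm, against 52076 ± 18004 and 29587 ± 10873 CPM in epidermal caps. The lowest stage 13 Hox sum in ventral mesoderm was 235 CPM, above the highest stage 13 sum of the other lineages (186 CPM, neural). The core mesoderm mean was higher at stage 13 in ventral mesoderm and lower in endoderm, and the epidermal sums of ventral mesoderm and untreated caps overlapped at stage 13. For hoxc6.L the difference of steps was 3.96 against epidermal caps (edgeR adjusted p = 1) and 4.04 against endoderm (edgeR adjusted p = 0.57). No Hox gene was called in any of these comparisons without the block.

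By the rule for step differences, the largest against endoderm were in dkk1.S, atp13a-like.S, pou2f3.L, casd1.L and otog.L on the positive side and cfi.L, dlk2.S, drgx.L, zc3h12c.L and celf3.S on the negative side. otog.L had 1338 ± 615 CPM at stage 13 and 84.5 ± 10.4 CPM at stage 12 in ventral mesoderm, against 0.525 and 0.643 CPM in endoderm. pou2f3.L, a POU homeobox gene, had 26 ± 5.45 CPM at stage 13 and 5.78 CPM at stage 12 in ventral mesoderm, against 0.0903 and 0.527 CPM in endoderm. dkk1.S, cfi.L, dlk2.S, drgx.L and celf3.S reached 10 CPM in endoderm only, and their ventral mesoderm means were under 3 CPM at both stages. So did zc3h12c.L, at 2.99 and 4.13 CPM in ventral mesoderm. In endoderm otog.L and pou2f3.L were low at both stages. Where a lineage is close to the floor, as dkk1.S, cfi.L and drgx.L were in ventral mesoderm, the size of a difference and its rank depend on the prior count. Such a size is not a measured fold. In the paired fits genes were picked after their values were seen. The step of foxf1.L was more positive in ventral mesoderm than in epidermal caps (paired log2 difference 3.37, edgeR adjusted p = 0.00169). That of wnt5a.S was more positive than in neural caps (4.09, edgeR adjusted p = 0.033). Other genes went the opposite way. The step of t.L was smaller than in epidermal caps (paired log2 steps 0.674 and 4.45, edgeR adjusted p = 0.00584). Those of ventx1.1.L (-3.94, edgeR adjusted p = 0.0276) and ventx1.2.L (-3.902, edgeR adjusted p = 0.00877) were smaller than in neural caps. In those caps t.L, ventx1.1.L and ventx1.2.L were near the floor at stage 12 (0.123, 0.0557 and 0.157 CPM). Without the block none of these genes was called.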

How the data were processed

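Per the study's methods, caps were cut from embryos, pooled at each stage, extracted with Trizol, made into libraries with a poly(A) mRNA kit and sequenced. The authors aligned the reads to the frog genome and deposited whole-number counts per gene for 74 libraries, with L and S copies apart. They also deposited TPM, a length-scaled level, used here only as an alternative.

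The 6 ventral mesoderm libraries of stages 13 and 12 were compared with edgeR 4.0.16 (robust quasi-likelihood test, TMM factors of these libraries, R 4.3.3) over the 27424 of 45656 genes that reached 15 counts in any of the 74 libraries, and p-values were adjusted by Benjamini-Hochberg (0.05). SEs were derived from the F statistic. A difference of steps between lineages was an interaction in a fit of 12 libraries. DESeq2 1.42.0, limma 3.58.1 with voom, other scalings and filters, TPM and left-out libraries were alternatives. DESeq2 and voom with the block, the block with summed homeologs and the removal of both libraries of a number were added after the data had been seen. The scripts were tested on simulated data. In them 100 genes changed 2-fold and 100 changed 4-fold. The paired edgeR fit recovered 85 and 100 of these and made 58 false calls, a larger share than its threshold. Paired DESeq2 recovered 77 and 99 with 21 false calls, a smaller excess. Voom with the block made 5 false calls and edgeR without it 0, neither in excess. EdgeR without the block missed most 2-fold changes (6 of 100 recovered). Far fewer genes changed there than were called in the real libraries, so these shares need not carry over. Calls of the paired edgeR fit alone are therefore less certain than those made in all 3 paired tests. Figures and tables were made with Python 3.11.15, pandas 2.3.3, numpy 2.4.6 and matplotlib 3.10.9.

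The methods state that a day's explants came from 1 frog, so the replicate number can mark a shared clutch. Deviations from the stage means correlated between same-numbered libraries (r = 0.67, 0.64 and 0.69 over 18038 genes), so the numbers were taken to pair the samples. For other pairs r was between -0.42 and -0.19. Because deviations were taken from each stage's own mean, positive values for same-numbered pairs force negative ones elsewhere, and that range is no separate evidence of pairing. The p-values measure the spread between these pools only.

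The comparison, the 24 gene lists and the tests were chosen with earlier results of these data known. Named genes were, per direction, the 12 called genes with the largest fold change, a symbol, no overlap and a mean of at least 10 CPM in the higher stage, then up to 10 called members of each list with its defining members that were not called, the genes the study follows in this lineage, and 5 per direction for step differences with at least 10 CPM in 1 of the 4 groups. Counts of 3 in a group were treated as the floor. Some items are not reported here.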

Additional observations from a re-analysis of the deposited data

Results flagged for a closer look

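For 10 genes the step between stages 12 and 13 differed between ventral mesoderm and endoderm by a test of the difference itself (the interaction in edgeR without the block). They are the 5 largest in each direction. Values are the log2 step of ventral mesoderm minus that of endoderm. On the positive side dkk1.S had 5.823, atp13a-like.S 5.711, pou2f3.L 4.607, casd1.L 4.345 and otog.L 4.27, with edgeR adjusted p between 0.00732 and 0.0266. On the negative side cfi.L had -7.515, dlk2.S -6.169, drgx.L -5.381, zc3h12c.L -4.897 and celf3.S -4.795, with edgeR adjusted p between 0.013 and 0.0395. dkk1.S, cfi.L, dlk2.S, drgx.L, zc3h12c.L and celf3.S reached 10 CPM in endoderm only. Of these, dkk1.S, cfi.L and drgx.L were near the floor in ventral mesoderm. dlk2.S (0.809 and 2.84 CPM at stages 13 and 12) and celf3.S (1.18 and 1.64 CPM) were low there but above it. zc3h12c.L had 0.507 CPM in endoderm at stage 12. In endoderm pou2f3.L (0.0903 and 0.527 CPM at stages 13 and 12) and otog.L (0.525 and 0.643 CPM) were near the floor. The sizes given for the genes near the floor, and their place among the largest, therefore depend on the prior count. With the replicate block 9 of the 10 remained at or under 0.05, and otog.L had an edgeR adjusted p of 0.103.

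dkk1.S, which encodes a secreted Wnt inhibitor, had 0.308 CPM at stage 13 and 0.0362 CPM at stage 12 in ventral mesoderm, against 15.7 and 123 CPM in endoderm. cfi.L, complement factor I, had 0.0226 and 0.146 CPM in ventral mesoderm, against 19.0 and 0.602 CPM in endoderm. casd1.L had 19.8 and 3.36 CPM in ventral mesoderm, against 1.48 and 5.14 CPM in endoderm.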

How the results depend on the processing

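The 1040 calls between stages 13 and 12 moved more than 1.5 times under several alternatives. They were 3343 with DESeq2, 2172 in a fit of 20 libraries (731 higher and 1441 lower) and 2800 in a fit of 74 (1018 and 1782). limma on log2(TPM + 0.1) called 198, and on log2(TPM + 1) it called 0, with 5275 genes at an unadjusted p under 0.05. Single libraries left out gave 0 to 949 calls, and both libraries of a number left out gave 0 to 620. 0 came without stage 13 replicate 2, without stage 12 replicate 3, and without both libraries of replicate 2. The cause was not tested. RLE and upper-quartile factors, library totals, both filters, the fit that was not robust, summed homeologs, thinning and a 2-fold minimum gave between 807 and 1325 calls.

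With the replicate block, 7113 genes were called by edgeR, 6038 by DESeq2, 6148 by limma voom and 5179 with homeologs summed. Pairs left out under the block gave 5067 to 6904. For the differences of steps, the block called 152 genes against epidermal, 2162 against endoderm and 14 against neural caps, and DESeq2 without it 6, 684 and 50. A fit of 24 libraries called 33 against endoderm and 0 against the others. Libraries left out gave 32 to 168 calls against endoderm, with the most without stage 13 replicate 1 of ventral mesoderm, 0 to 2 against neural and 0 against epidermal caps.

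None of the 56 named genes changed direction where it was called by the main fit or by the alternative. Changes of sign in genes called by neither were not counted. bix1.3.L was such a gene, with a log2 fold change of -0.12, and 0.02 in the paired fit. The main fit called 26 of the 56. The block lost the call of 1, and all 26 lost theirs without stage 13 replicate 2, without stage 12 replicate 1 and without stage 12 replicate 3. Depth limits the genes at or under a few counts at stage 12, Hox genes among them.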
